A study of Mus musculus with 8 samples.

Results

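The 10 transcription factor genes studied here are used to describe the identity of liver mesenchyme, and they were followed across all sorted cell types of the adult mouse liver. They were chosen by name as the rows *Wt1*, *Tcf21*, *Lhx2*, *Hand2*, *Nr2f2*, *Osr1*, *Tbx20*, *Tbx18*, *Foxf1* and *Nr1h4*, which are 10 of the 46517 gene rows of the count table. The rule itself uses no measured value, although the genes were proposed with earlier results of these data known.

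The liver mesenchyme comprises hepatic stellate cells (HSC), which store vitamin A around the sinusoids, fibroblasts of the portal tract, bile ducts and capsule, and mural cells, that is, the smooth muscle cells (SMC) and pericytes of the vessels. In the embryo much of it derives from the septum transversum and from the mesothelium that covers the organ, and several of the genes mark these layers. WT1 is a zinc finger factor of the coelomic lining, LHX2 a LIM homeodomain factor needed to keep stellate cells quiescent, TCF21 and HAND2 are basic helix-loop-helix (bHLH) factors, OSR1 is a zinc finger factor of the intermediate mesoderm, and TBX18 and TBX20 are T-box factors. FOXF1 is a forkhead factor that responds to Hedgehog signals, NR2F2 (COUP-TFII) an orphan nuclear receptor of venous endothelium and mesenchyme, and NR1H4 (FXR) the nuclear receptor for bile acids.

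Single liver cells of adult male and female mice were sorted into plates and sequenced by Smart-seq2, a full-length cDNA method, and each value is a count of reads per gene and cell. The mouse strains were C57BL6/J itself and heterozygous reporter lines, alone or combined (*Pdgfrb*-GFP, *Pdgfra*-H2bGFP, *Cspg4*-dsRED, *Acta2*-GFP and *Cldn5*-GFP), and no treatment or disease was applied. The 3491 cells form 8 pools, which are the samples of the series: 998 male and 339 female mesenchymal, 655 and 451 endothelial, 358 and 39 epithelial (hepatocytes and cholangiocytes), and 255 and 396 immune cells. Mesenchymal cells had been enriched on *Pdgfrb*, *Pdgfra* and *Acta2* reporters or a PDGFRA antibody, endothelial cells on CD31, VE-cadherin or *Cldn5*-GFP, cholangiocytes on EPCAM and Kupffer cells on CD68, whereas hepatocytes were taken without selection, so that the numbers of cells reflect the sort. Because no label names the mouse, a male and a female pool stood in for replicates, and p values measure the spread between such pools, which also differ in sex and plate. The female epithelial pool held 37 cholangiocytes and 2 hepatocytes, whereas 157 of the 358 male epithelial cells were cholangiocytes. The spread of that class therefore also includes a difference in cell types. All female mesenchymal cells came from 1 plate and the male ones from 9 plates. The study had fewer mice than the 22 plates in all, so plates can share a mouse and sums per plate may not be independent.

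Depth was high for single cells, with 47063 to 1128421 counts per cell (median 228708). The median in the male and the female pool was 182157.5 and 321121 counts for mesenchymal cells and 215239 and 88932 for epithelial cells. The 6 mesenchymal markers (*Pdgfra*, *Pdgfrb*, *Col1a1*, *Col1a2*, *Col3a1*, *Dcn*) summed to 12518 to 15780 CPM (counts per 1000000 counts of the sum) in the mesenchymal pools and to 18.1 to 164 CPM in the 6 other pools. Since the study sorted mesenchymal cells on *Pdgfra* and *Pdgfrb* and grouped them by these genes, the sums are no independent check of the labels. The study's own clusters were used throughout, from a coarse multilevel setting (#m1 to #m10 in mesenchyme) and a finer community setting (#m1c to #m18c), with the names that the study gave them. Since the same transcriptomes had defined these clusters, differences between them are partly built in, the *Wt1*+ fibroblasts were named on *Wt1* itself, and the study also uses *Wt1* as a marker of the capsular stellate cells.

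In GRCm38 (GENCODE vM21), *Wt1* spans chr2:105126529-105173616 on the plus strand and *Lhx2* chr2:38339281-38369733 on the plus strand. *Tcf21* (chr10:22817281-22820174) and *Nr1h4* (chr10:89454234-89533585) share chromosome 10, both on the minus strand, and *Tbx20* (chr9:24718138-24774303) and *Tbx18* (chr9:87702800-87731260) share chromosome 9, also on the minus strand. *Hand2* (chr8:57320983-57324633) and *Foxf1* (chr8:121084386-121088144) are on the plus strand of chromosome 8, *Osr1* (chr12:9570116-9581500) is on the plus strand, and *Nr2f2* (chr7:70351944-70366735) on the minus strand.

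RefSeq start sites (GRCm38.p6) were at hand for 7 of the 10 genes, and *Wt1*, *Osr1* and *Foxf1* had no entry. The 250 bases before the start are given for 4 of these 7, the 3 that were called in comparisons within mesenchyme and *Hand2*, which had the greatest fitted difference between mesenchyme and the other classes, that is, for *Tcf21* (chr10:22820144-22820393, minus strand), *Nr1h4* (chr10:89506659-89506908, minus strand), *Lhx2* (chr2:38339031-38339280, plus strand) and *Hand2* (chr8:57320733-57320982, plus strand), 5′ to 3′ along the gene. Capitals mark matches, on either strand, to the letters CANNTG (E-box, the bHLH site), TAATTA (LIM homeodomain core), AGGTCA (nuclear receptor site), AGGTGT (T-box), TAAACA (forkhead core), GATAA (GATA site), GCGTGGGAG (WT1) and TATAAA (core promoter box).
Tcf21: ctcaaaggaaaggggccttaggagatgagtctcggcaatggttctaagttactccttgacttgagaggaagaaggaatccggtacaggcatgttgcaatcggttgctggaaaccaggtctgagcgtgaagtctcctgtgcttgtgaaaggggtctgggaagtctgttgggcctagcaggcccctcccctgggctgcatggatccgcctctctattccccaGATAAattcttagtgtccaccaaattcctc
Nr1h4: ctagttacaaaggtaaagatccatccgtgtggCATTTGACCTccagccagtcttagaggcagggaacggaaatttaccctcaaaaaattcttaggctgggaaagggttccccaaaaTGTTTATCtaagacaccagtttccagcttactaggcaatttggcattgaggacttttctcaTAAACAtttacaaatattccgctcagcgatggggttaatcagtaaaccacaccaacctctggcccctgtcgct
Lhx2: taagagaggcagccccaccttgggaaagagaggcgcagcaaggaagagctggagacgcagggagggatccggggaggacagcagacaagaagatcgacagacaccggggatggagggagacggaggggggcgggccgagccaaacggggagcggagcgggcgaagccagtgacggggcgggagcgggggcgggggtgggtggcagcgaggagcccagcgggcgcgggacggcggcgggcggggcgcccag
Hand2: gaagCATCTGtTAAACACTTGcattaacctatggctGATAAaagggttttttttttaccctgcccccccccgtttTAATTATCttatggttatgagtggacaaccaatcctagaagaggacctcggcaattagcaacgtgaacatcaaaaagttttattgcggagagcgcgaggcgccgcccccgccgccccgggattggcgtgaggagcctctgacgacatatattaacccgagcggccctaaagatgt
The *Tcf21* window held 1 match, a GATA site 30 to 26 bases before the RefSeq start, which lies inside the longer GENCODE gene model. The *Nr1h4* window held 5, with an E-box that overlaps a nuclear receptor site and a pair of forkhead cores of which the upstream one overlaps a GATA site, and its RefSeq start also lies inside the longer gene model. The *Hand2* window held 6, among them 2 E-boxes and a LIM homeodomain core that overlaps a GATA site. No listed motif was in the *Lhx2* window, in which G and C made up 72.8% of bases against a mean of 53.2% over all 32851 promoters. Of those promoters, 66.2% held an E-box, 22.6% a GATA site, 14.02% the nuclear receptor site, 12.03% the forkhead core, 11.8% the T-box site, 12.4% the core promoter box, 4.84% the LIM core and 0.405% the WT1 site, and a match says nothing about binding.

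Of the 10 genes, 8 had their highest level in mesenchyme, *Nr2f2* was highest in endothelial cells and *Tbx18* was close to 0 in every class. *Tcf21* reached 298 CPM (male) and 271 CPM (female) in the mesenchymal pools, and no pool of another class exceeded 6.53 CPM. *Hand2* was at 55.1 and 45.8 CPM, *Foxf1* at 49.8 and 38.4 CPM, *Wt1* at 56.5 and 53.0 CPM, and *Lhx2* at 32.8 and 29.6 CPM, against at most 1.59 CPM in any pool of another class. For these 5 genes the pools of mesenchyme and of the other classes lay far apart, and the male and female values were close. *Tbx20*, known for its role in heart development, reached 116 CPM in the male pool but 45.4 CPM in the female one, and *Osr1* was the converse with 74.98 and 133 CPM. The T-box gene *Tbx18*, a marker of the epicardium, was at 0.03 and 0.05 CPM, did not pass the filter on low counts and was tested nowhere, so all counts below are of 9 genes. Per kilobase of exon, *Tcf21* had the highest mesenchymal level (123 CPM per kb), followed by *Nr1h4* (54.8), *Osr1* (45.9), *Nr2f2* (25.4), *Hand2* (22.1), *Foxf1* (18.99), *Wt1* (8.93), *Tbx20* (7.64) and *Lhx2* (7.22).

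**Figure D1:**
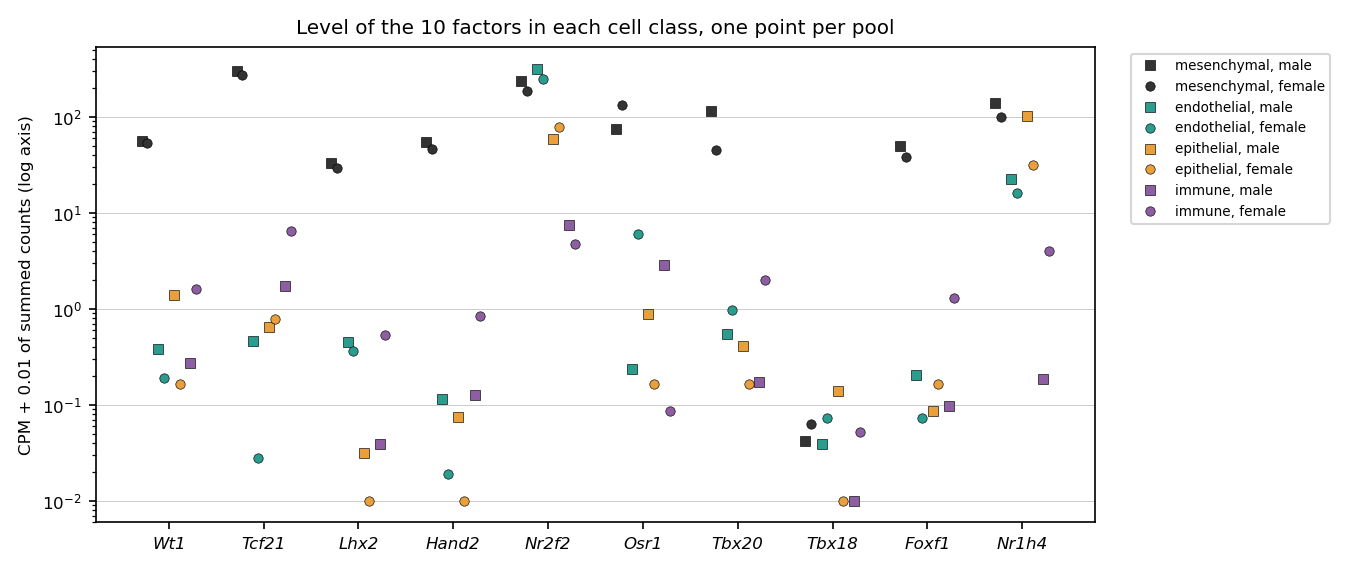
Level of each of the 10 genes in the 4 cell classes, on a log axis of CPM + 0.01, with a square for the male and a circle for the female pool. Mesenchymal pools lie above all others for most genes, *Nr2f2* is also high in endothelial cells, *Nr1h4* in epithelial cells, and *Tbx18* stays near the bottom in every class.

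Against the mean of the other classes, all 9 genes tested were called higher in mesenchyme, where 9.47% of all 24046 genes tested were called higher. Calls required an adjusted p (edgeR quasi-likelihood test, Benjamini-Hochberg over all genes tested) below 0.05 together with an absolute log2 difference of 1 or more. The fitted change weights each group equally on the log scale and is therefore not the same as a ratio of mean CPM. *Hand2* had the greatest fitted log2 difference, 8.81 (SE 0.997, adjusted p = 0.00129), then *Tcf21* (8.38, SE 0.87, adjusted p = 9.56e-04), *Lhx2* (7.93, SE 0.97, adjusted p = 0.00171), *Foxf1* (7.79, SE 0.95, adjusted p = 0.0017), *Tbx20* (7.05, SE 0.88, adjusted p = 0.00185), *Wt1* (6.54, SE 0.85, adjusted p = 0.00224) and *Osr1* (6.22, SE 1.27, adjusted p = 0.0159). The nuclear receptors differed least, by 2.16 for *Nr2f2* (SE 0.32, adjusted p = 0.00376) and by 3.15 for *Nr1h4* (SE 0.84, adjusted p = 0.0456). With sex as a block the *Nr1h4* call was lost (adjusted p = 0.0734).

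Taken class by class, 6 genes were called higher than in endothelial cells (3.89% of all genes were), 8 than in immune cells (7.63%) and 6 than in epithelial cells (4.12%), and these comparisons share the mesenchymal pools. *Wt1*, *Tcf21*, *Lhx2*, *Hand2*, *Tbx20* and *Foxf1* were called in each of them. Under the sex block *Lhx2* lost its call against endothelial cells (adjusted p = 0.0522) and *Wt1* that against epithelial cells (adjusted p = 0.0509). Leaving out 1 pool at a time gave 1 to 6, 2 to 9 and 0 to 7 called genes in the order above, with 0 without either epithelial pool. *Osr1* was called in none of the 3, with log2 differences of 5.11 to 7.45, standard errors of 1.91 to 2.15 and adjusted p of 0.0824 to 0.181. With sums per plate, where plates can share a mouse, it was called in each (adjusted p = 1.87e-04 to 0.0041).

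*Nr2f2* was an endothelial as well as a mesenchymal transcript. Its level was 237 and 184.3 CPM in the male and female mesenchymal pools, 318 and 250 CPM in the endothelial, 59.2 and 78.3 CPM in the epithelial and 7.38 and 4.78 CPM in the immune pools. Both endothelial values lay above both mesenchymal ones, but the fitted log2 difference of -0.32 (SE 0.42) did not pass the test (adjusted p = 0.811). Every endothelial cluster expressed it, at 159 to 454 CPM per cluster and pool. The difference from epithelial cells was 1.73 on the log2 scale (SE 0.43, adjusted p = 0.0534) and that from immune cells 5.08 (SE 0.50, adjusted p = 0.00155).

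*Nr1h4* was shared with hepatocytes. It stood at 140 and 98.9 CPM in the mesenchymal pools and at 102 and 31.9 CPM in the epithelial ones, which overlapped (log2 difference 0.90, SE 1.14, adjusted p = 0.731). The female epithelial pool was nearly all cholangiocytes, so its level is not one of hepatocytes. Among male epithelial cells it was at 289 CPM in hepatocyte cluster #p4, 263 in #p5, 154 in #p3 and 119 in #p1, and cholangiocytes (#p2) had 24.3 and 32.7 CPM in the male and female pool. Endothelial cells had 22.5 and 16 CPM, most of it in the central vein cluster #e1 (113 and 38.2 CPM). By the mean over single cells instead of pooled counts, epithelial cells and not mesenchymal cells had the highest *Nr1h4* level. Against immune cells (0.18 and 3.98 CPM) the fitted log2 difference was 5.81 (SE 1.39, adjusted p = 0.0316, and 0.0543 with the sex block).

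The remaining genes were low outside mesenchyme, with exceptions in small clusters. *Osr1* was at 18.1 and 180 CPM in the lymphatic endothelial cluster #e4, of 9 male and 13 female cells, where *Tbx20* (41.8 CPM) and *Tcf21* (26.2 CPM) were found in the male pool and were at 0 in the female one. In the Kupffer cell cluster #i4, *Tcf21* was at 0.33 CPM (male) and 58.3 CPM (female), *Nr2f2* at 119 and 25.2 CPM and *Osr1* at 55.4 and 0.59 CPM, and *Wt1* at 1.63 and 21.8 CPM. The mesenchymal markers summed to 875 CPM and the endothelial markers to 2255 CPM in #i4 over both pools, with none of either list's 6 genes at 0, and their part in these values was not tested.

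Cells of the mesenchyme carried several of the factors at once. A median of 4 of the 10 genes was detected per mesenchymal cell, against 1 in endothelial and epithelial cells and 0 in immune cells, and 547 mesenchymal cells (40.9%) had 5 or more. At 20 counts or more the median was 2 genes in mesenchymal, 1 in endothelial and 0 in epithelial and immune cells, and 82 mesenchymal cells (6.13%) had 5 or more. *Nr2f2* was detected in 80.6% and *Tcf21* in 76.8% of mesenchymal cells, and *Lhx2* in 16.8%. With counts thinned to 50000 per cell these shares were 67.4%, 65.7% and 9.6%. A single count is weak evidence, because *Wt1* was detected in 25.8% of arterial SMC (#m2c) although none of these 236 cells had 20 counts, which allows a share of up to 1.27%. At 20 counts or more, *Tcf21* was found in 52.9%, *Nr2f2* in 48.9%, *Nr1h4* in 20.9%, *Tbx20* in 18.5%, *Hand2* in 18.3%, *Foxf1* in 11.5%, *Osr1* in 10.5%, *Wt1* in 9.72% and *Lhx2* in 6.28% of mesenchymal cells.

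**Figure D2:**
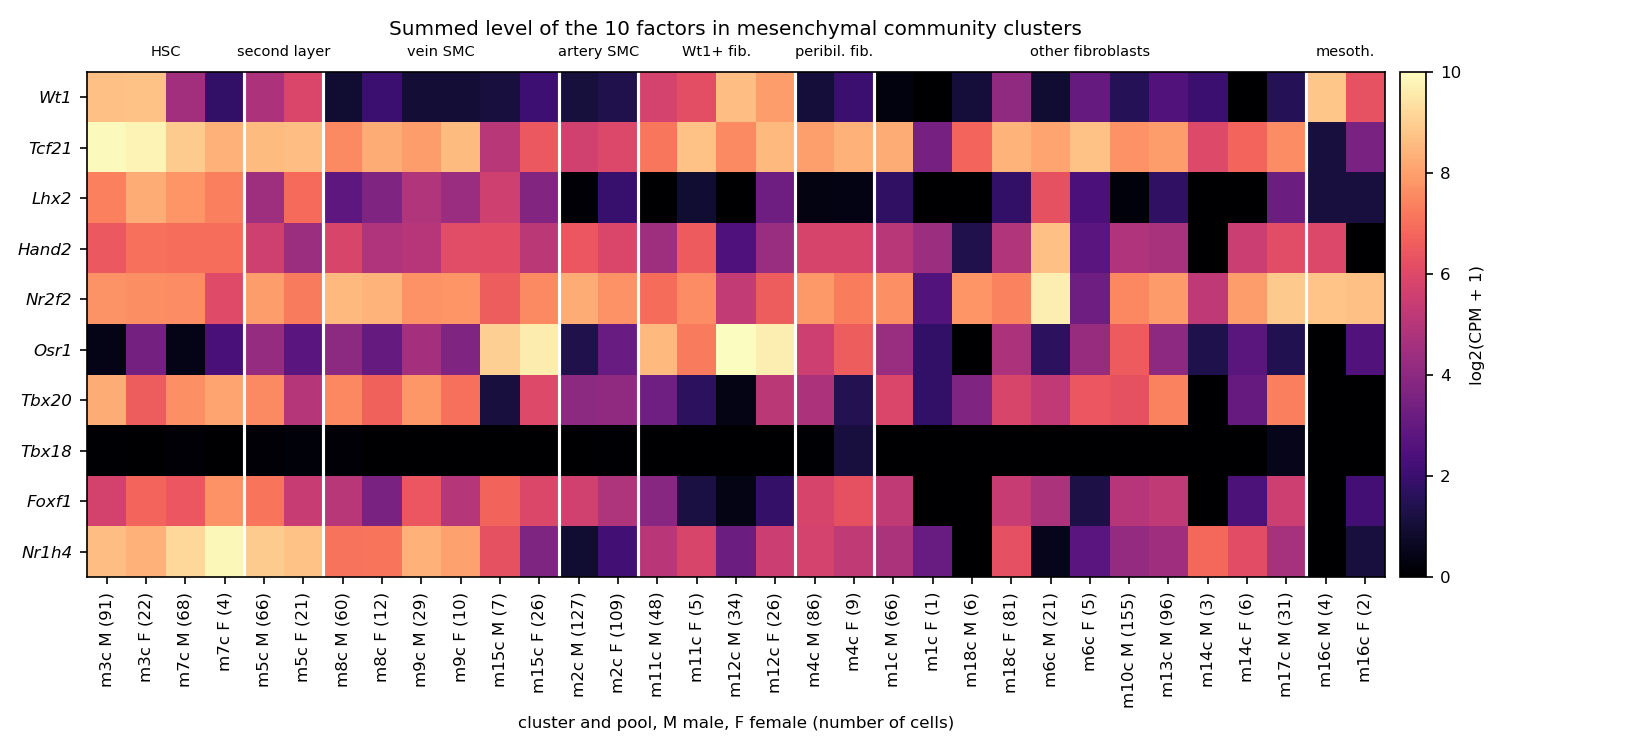
Level of the 10 genes, as log2(CPM + 1), in each community cluster of mesenchyme and pool, with the number of cells in brackets. *Tcf21* and *Nr2f2* are broad, *Wt1* is high in #m3c and #m12c, *Lhx2* in #m3c and #m7c, *Osr1* in #m11c, #m12c and #m15c, and *Nr1h4* is near 0 in arterial SMC (#m2c).

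Within mesenchyme the factors divided the clusters in different ways. The community setting splits the HSC into #m7c (HSC, 68 male and 4 female cells) and #m3c (capsular HSC or cHSC, 91 male and 22 female cells), which the multilevel setting joins as #m3. *Reln*, which defines stellate cells, was at 3627 CPM over both pools in #m7c and 1552 CPM in #m3c. *Lrat*, the enzyme that esterifies retinol, was at 1932 and 379 CPM, and the HSC markers *Hgf* (653 and 265 CPM), *Ngfr* (465 and 210.0 CPM) and *Hhip* (298 and 0.20 CPM) were likewise higher in #m7c.

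*Wt1* was highest in #m3c, the cHSC, at 414 CPM (male) and 422 CPM (female). The *Wt1*+ fibroblast cluster #m12c followed with 397 and 248 CPM, and the other such cluster, #m11c, with 53.8 and 71.7 CPM. The second layer cells #m5c, a population around vessels, had 26.8 and 58.0 CPM and HSC of #m7c 21.8 CPM in the male pool. The pools of #m3c and #m12c did not overlap each other, but their plates did (245 to 568 and 248 to 428 CPM), and the pools of #m11c and #m5c overlapped. The share of cells with 20 or more *Wt1* counts was 65.0% in #m12c (95% exact binomial interval 51.6 to 76.9%), 55.8% in #m3c (46.1 to 65.1%), 13.2% in #m11c, 10.3% in #m5c and 4.17% in #m7c, and intervals cover counting error alone. Thinned to equal depth, 71.7% of #m12c and 67.6% of #m3c cells had a *Wt1* count, against 11.1% of #m7c cells.

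*Lhx2* was shared by both HSC clusters. It was at 164 and 304 CPM in #m3c and at 221 CPM in the male cells of #m7c (159 CPM in its 4 female cells, of which 1 held 189 of the *Lhx2* counts and the others 0 or 1). Levels elsewhere were lower and uneven, with 20.5 and 117 CPM in #m5c, 48.3 and 12.3 CPM in SMC of large veins (#m15c), 29.0 and 19.7 CPM in venous SMC (#m9c) and 75.2 and 4.28 CPM in #m6c, a small cluster of 26 cells. In contrast to *Wt1*, it was nearly missing from the *Wt1*+ fibroblasts, with 0 and 8.57 CPM in #m12c and 0 and 0.87 CPM in #m11c. Of the cells, 29.2% in #m3c and 36.1% in #m7c had 20 or more *Lhx2* counts.

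*Tcf21* was found in the largest share of mesenchymal cells at 20 or more counts, and *Nr2f2* at a single count. *Tcf21* was at 949 and 889 CPM in #m3c, 484 CPM in male #m7c, 375 and 396 CPM in #m5c and 243 and 375 CPM in venous SMC (#m9c). The lowest levels among clusters of at least 20 cells were in arterial SMC (#m2c, 49.4 and 61.8 CPM) and in SMC of large veins (#m15c, 32.4 and 87.8 CPM). *Nr1h4* had its peak in #m7c (584 CPM male) and was also high in #m5c (491 and 427 CPM), #m3c (397 and 331 CPM) and #m9c (331 and 265 CPM), with no overlap between the pools of #m5c and #m3c but wide overlap between their plates (16.03 to 752 and 108 to 471 CPM). Per kilobase of exon the order in #m3c was *Tcf21* (398 CPM per kb), *Nr1h4* (165), *Wt1* (67.2) and *Lhx2* (45.1), and in #m7c *Nr1h4* (266), *Tcf21* (201), *Hand2* (53.4) and *Lhx2* (49.3), where *Wt1* was at 3.27.

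Multilevel cluster #m3 was then set against the 5 fibroblast clusters (#m1, #m4, #m8, #m9, #m10), to ask which factors distinguish stellate cells from fibroblasts. *Wt1*, *Lhx2*, *Tcf21* and *Nr1h4* were called higher in HSC, 4 of the 9 genes tested against 0.492% of all genes. The mean *Lhx2* level was 187 CPM (male) and 280 CPM (female) in #m3 and 2.31 and 3.09 CPM over fibroblasts (5 clusters in the male but 3 in the female pool, since #m8 and #m10 had no female sum), a fitted log2 difference of 7.51 (SE 1.25, adjusted p = 0.00738). *Wt1* was at 245 and 353 CPM against 37.8 and 73.4 CPM (5.19, SE 0.82, adjusted p = 0.0048), although the fibroblast mean contains #m9, which holds the *Wt1*+ cells, and the level of #m3 rests on the cHSC, since the male HSC of #m7c had 21.8 CPM. *Nr1h4* was at 472 and 431 CPM against 28.2 and 51.0 CPM (3.75, SE 0.55, adjusted p = 0.003). For *Tcf21*, which fibroblasts also express, the values were 744 and 797 CPM against 226 and 339 CPM (1.45, SE 0.33, adjusted p = 0.0477). These means over clusters overlapped for none of these 4 genes, and the share of all genes without overlap was not counted. *Osr1* was at 0.36 and 8.88 CPM in HSC and at 145 and 251 CPM in fibroblasts, but the difference of -4.02 (SE 1.02) did not pass (adjusted p = 0.0934), whereas with sums per plate it did (-5.74, adjusted p = 0.00922). *Hand2* (1.62), *Tbx20* (2.03), *Foxf1* (1.64) and *Nr2f2* (-0.10) did not pass either, at adjusted p of 0.292 or more.

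**Figure D3:**
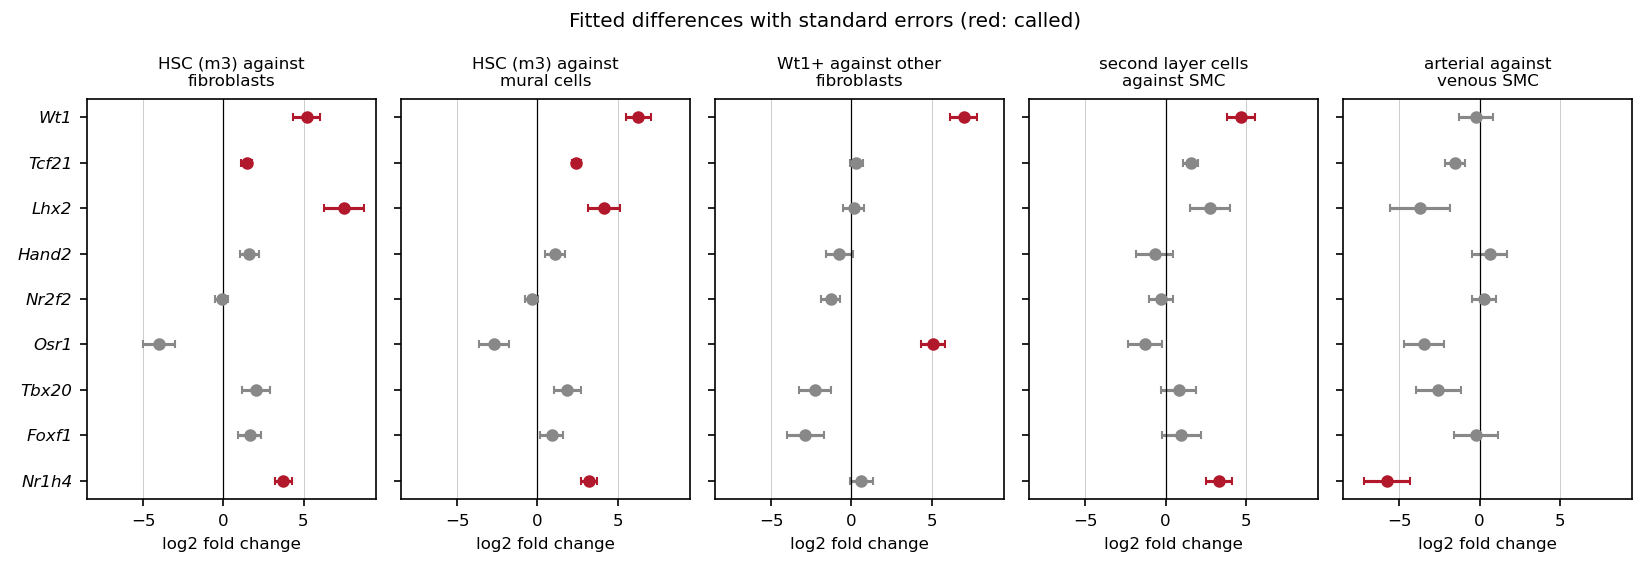
Fitted log2 fold change with its standard error for the 9 genes tested in 5 comparisons, with called genes in red. *Wt1*, *Lhx2*, *Tcf21* and *Nr1h4* are red in HSC against fibroblasts, *Wt1* and *Osr1* in *Wt1*+ against other fibroblasts, and *Nr1h4* is negative in arterial against portal and venous SMC.

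The same 4 genes were called higher in #m3 than in the mural clusters (#m2, #m5, #m6, #m7), where 1.64% of all genes were called higher. The 2 comparisons share the HSC sums. *Wt1* was at 5.98 and 11.5 CPM in mural cells (log2 difference 6.30, SE 0.76, adjusted p = 2.69e-04) and *Tcf21* at 163 and 197 CPM (2.43, SE 0.31, adjusted p = 3.27e-04). *Nr1h4* was at 166 and 130 CPM (3.23, SE 0.52, adjusted p = 0.00236) and *Lhx2* at 19.4 and 27.7 CPM (4.13, SE 1.01, adjusted p = 0.0413, but 0.0642 with the sex block and 0.163 with sums per plate). Between these means none of the 4 overlapped. By single cluster, however, *Nr1h4* in mural cluster #m5 (373 to 461 CPM) overlapped #m3 (431 to 472 CPM). The share of all genes without overlap was not counted. Between fibroblasts and mural cells, where 0.966% of genes were called lower in fibroblasts, *Lhx2* was the 1 gene called, at -3.38 (SE 0.91, adjusted p = 0.0496). That call was lost with thinned cells and with sums per plate, and with the sex block *Lhx2* did not pass either (adjusted p = 0.102) and *Tcf21* passed (1.04, adjusted p = 0.00377). Peribiliary fibroblasts (#m4) differed from the other fibroblasts in none of the 9 genes by edgeR, in 1 gene (*Wt1*, 1.10 and 2.99 against 47.0 and 109 CPM) at an unadjusted p under 0.05 and in 0 genes by DESeq2, and 0.0626% of all genes were called.

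The comparison of cHSC with HSC turned on *Wt1*. The cHSC values of 414 and 422 CPM compare with 21.8 CPM in the male HSC, the sole HSC sum of at least 5 cells. That HSC value comes mostly from single cells with 128 and 125 *Wt1* counts, and no other male HSC had above 23. The fitted log2 difference was 4.24 (SE 1.91) at an unadjusted p of 0.034 and an adjusted p of 1. None of the 9 genes was called, 1 (*Wt1*) had an unadjusted p under 0.05, DESeq2 called 0, and 0.0234% of all genes were called. When the counts were summed per plate, which gives several HSC sums, *Wt1* was called (5.57, adjusted p = 0.0381). That fit did not pair the clusters of a plate, and plates can share a mouse. Per plate, *Wt1* ranged from 245 to 568 CPM (median 422) over the 7 plates with at least 5 #m3c cells and from 0 to 36.3 CPM (median 2.52) over the 5 plates with as many #m7c cells, all male, without overlap. *Lhx2* (0 to 304 CPM against 4.53 to 294 CPM), *Tcf21* (477 to 1733 against 298 to 868 CPM) and *Nr1h4* (108 to 471 against 78.9 to 666 CPM) overlapped.

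Single cells were then scored for pairs of factors. At 20 or more counts, 17 of the 113 cells of #m3c had both *Wt1* and *Lhx2*, 46 had *Wt1* without *Lhx2*, 16 *Lhx2* without *Wt1* and 34 neither. Of the 72 cells of #m7c, 3 had both, 23 had *Lhx2* without *Wt1*, none had *Wt1* without *Lhx2* and 46 had neither. In #m12c 39 of 60 cells had *Wt1*, of which none had *Lhx2* and 31 had *Osr1*. *Tcf21* joined *Wt1* in 58 cells of #m3c, and *Tcf21* and *Nr1h4* were found together in 57 cells of #m3c, 38 of #m7c and 41 of the 87 cells of #m5c.

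**Figure D4:**
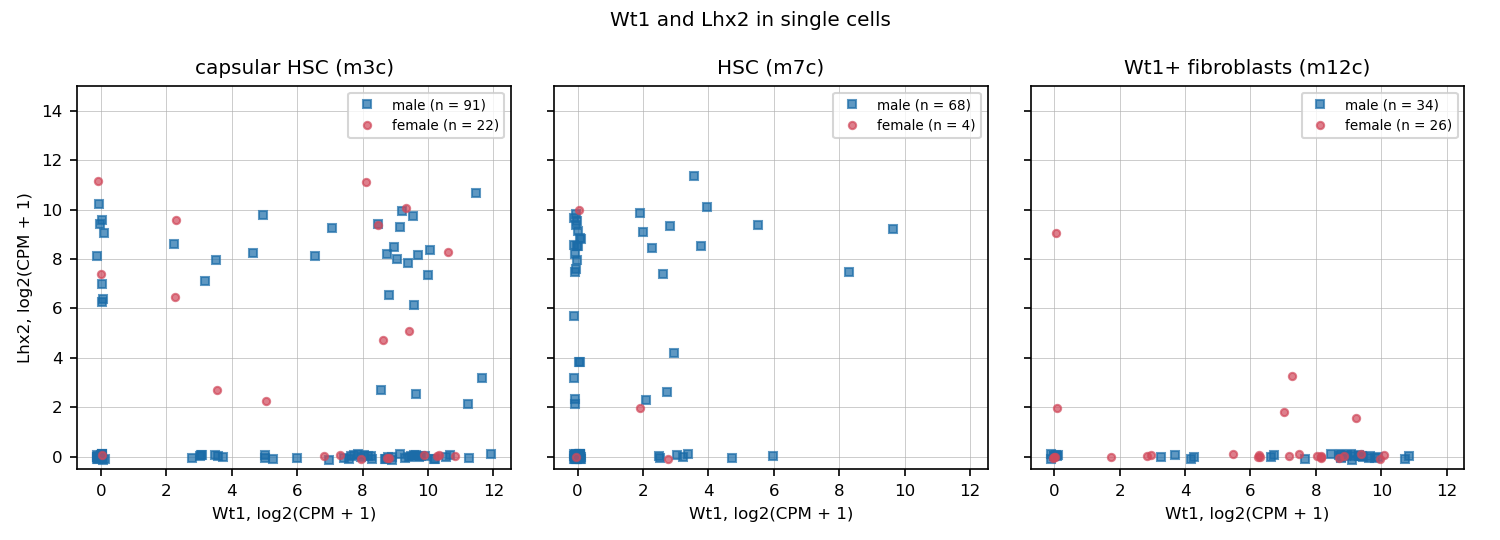
*Wt1* against *Lhx2* in single cells, both as log2(CPM + 1), for cHSC (#m3c, 91 male and 22 female cells), HSC (#m7c, 68 and 4) and *Wt1*+ fibroblasts (#m12c, 34 and 26), with slight jitter. Cells with high values of both genes occur in #m3c, cells of #m7c lie mostly near the origin or along the *Lhx2* axis, and cells of #m12c mostly along the *Wt1* axis.

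*Wt1*+ fibroblasts shared *Wt1* with the cHSC but had *Osr1* beside it. The study had reported *Osr1* as a gene of these clusters from the same cells, so its call here is not independent. The study places these fibroblasts at the capsule and does not exclude other locations. *Osr1* was at 1005 and 816 CPM in #m12c and 371 and 150 CPM in #m11c, and at 0.37 and 9.81 CPM in the cHSC. Averaged over #m11c and #m12c it was at 688 and 483 CPM, against 25.2 and 36.5 CPM over the other fibroblast clusters (#m1c, #m4c, #m6c, #m10c, #m13c, #m14c, #m17c, #m18c), of which 7 had a male and 4 a female sum of at least 5 cells. The log2 difference was 5.07 (SE 0.73, adjusted p = 7.49e-05), and with the female plate left out of sums per plate the call was lost (adjusted p = 0.129). *Wt1*, on which the cells were named, was at 226 and 160 CPM against 1.70 and 6.55 CPM (6.996, SE 0.86, adjusted p = 7.07e-06). These were the 2 genes of 9 called higher, where 1.29% of all genes were. *Tbx20* (-2.27), *Foxf1* (-2.89) and *Nr2f2* (-1.30) were lower without passing, at adjusted p of 0.288 to 0.404. Between the *Wt1*+ clusters themselves none of the 9 genes was called by edgeR, with 0 at an unadjusted p under 0.05 and 0 by DESeq2, where 0.0141% of all genes were called. *Wt1* was 397 and 248 CPM in #m12c against 53.8 and 71.7 CPM in #m11c (2.39, SE 1.30, adjusted p = 0.957), a gap in which the pools did not overlap. *Osr1*, *Nr2f2* (39.7 and 93.5 against 120 and 192 CPM) and *Hand2* (4.60 and 19.2 against 20.4 and 92.1 CPM) were also without overlap by pool. Over plates of at least 5 cells, *Nr2f2* (25.3 to 93.5 against 75.5 to 192 CPM) and *Hand2* (3.49 to 19.2 against 11.6 to 92.1 CPM) overlapped. The female sum of #m11c holds 5 cells, and the share of all genes without overlap was not counted.

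*Osr1* had a further peak in the mural group. SMC of large veins (#m15c, 7 male and 26 female cells) held it at 513 and 783 CPM, whereas arterial (#m2c), portal (#m8c) and venous (#m9c) SMC were much lower. The share of cells with 20 or more counts was 73.3% in #m12c, 69.7% in #m15c and 49.1% in #m11c. In #m15c the mural markers (*Acta2*, *Tagln*, *Myh11*, *Cnn1*, *Notch3*, *Mcam*, *Pln*) summed to 13075 and 17278 CPM and the fibroblast markers to 6280 and 7098 CPM, with none of the 7 mural genes at 0 and with 2 of the 8 fibroblast genes at 0 in the male pool. The corresponding sums of fibroblast markers were 2070 and 3163 CPM in #m2c, and their part in the *Osr1* level was not tested.

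**Figure D5:**
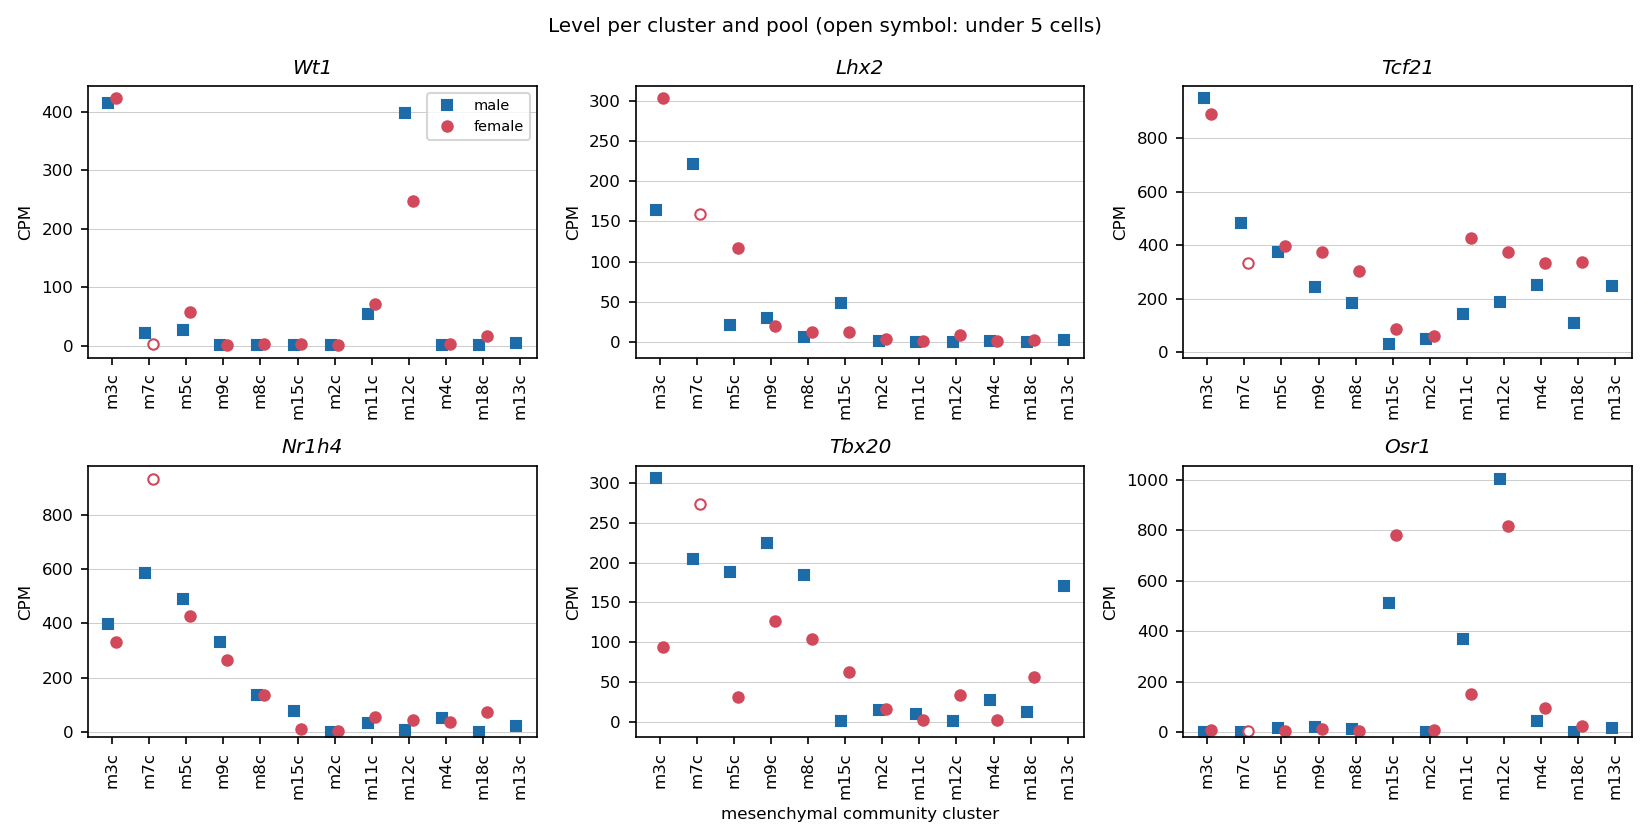
CPM of *Wt1*, *Lhx2*, *Tcf21*, *Nr1h4*, *Tbx20* and *Osr1* on linear axes in 12 of the 18 community clusters of mesenchyme, by pool, with open symbols for sums of under 5 cells. *Osr1* peaks in #m12c and #m15c, *Nr1h4* in #m7c, #m5c, #m3c and #m9c, and *Tbx20* is higher in the male than the female cells of #m3c and #m5c.

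Along the vessels *Nr1h4* differed between arterial and venous SMC. It was at 0.89 and 3.48 CPM in arterial SMC and averaged 181 and 138 CPM over the portal, venous and large vein SMC, a log2 difference of -5.77 (SE 1.44, adjusted p = 0.0319). It was the 1 gene of 9 called, and 0.567% of all genes were called lower in arterial SMC. With sums per plate it was not called (-5.17, adjusted p = 0.0577). Within the venous side its level was uneven, with 331 and 265 CPM in #m9c, 136 and 138 CPM in portal vein SMC (#m8c) and 76.5 and 11.6 CPM in #m15c. *Osr1* (1.59 and 7.65 against 183.5 and 267 CPM), *Tcf21* (49.4 and 61.8 against 154 and 255 CPM), *Tbx20* (14.9 and 15.9 against 137 and 97.7 CPM) and *Lhx2* (0.09 and 2.82 against 27.9 and 14.6 CPM) were also lower in arterial SMC by these means of 3 venous clusters, without passing (adjusted p of 0.216 to 0.565). Single clusters overlapped the arterial values, since male #m15c had 1.22 CPM of *Tbx20* and 32.4 CPM of *Tcf21* and female #m8c 7.18 CPM of *Osr1*. *Lrat* was called lower in arterial SMC as well (-5.88, adjusted p = 0.0202). Of the marker lists, 4 of 6 mesenchymal (*Col1a1*, *Col1a2*, *Col3a1*, *Dcn*), 2 of 8 fibroblast (*Dpt*, *Mfap4*) and 1 of 5 tested hepatocyte markers were also called lower there. The last was *Cyp2e1*, a drug-metabolizing enzyme of hepatocytes, at 27.9 and 14.9 against 684 and 369 CPM (-3.90, adjusted p = 0.017). The 6 hepatocyte markers summed over both pools to 359 CPM in #m2c, 484 CPM in #m8c, 1513 CPM in #m9c and 995 CPM in #m15c, where 1 of them was at 0, and their part in the *Nr1h4* difference was not tested.

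Second layer cells #m5c held *Nr1h4* and *Wt1* above the SMC. *Nr1h4* was at 491 and 427 CPM in #m5c against 136 and 104 CPM over the 4 SMC clusters (log2 difference 3.34, SE 0.83, adjusted p = 0.03, and 0.064 with the sex block). *Wt1* was at 26.8 and 58.0 CPM against 1.08 and 2.20 CPM (4.69, SE 0.86, adjusted p = 0.00177). These 2 genes were called higher, where 1.46% of all genes were, and neither was with sums per plate (adjusted p = 0.0579 for *Nr1h4* and 0.0618 for *Wt1*). *Tcf21* (375 and 396 against 128 and 207 CPM, 1.56, SE 0.49) missed the threshold at an adjusted p of 0.109 and passed with the sex block (1.64, adjusted p = 0.0389). The hepatocyte markers (*Alb*, *Apoa1*, *Ttr*, *Serpina1a*, *Cyp2e1*, *Hnf4a*) summed over both pools to 2031 CPM in #m5c, 1513 CPM in #m9c, 751 CPM in #m7c and 406 CPM in #m3c, against 10460 to 22335 CPM in the hepatocyte clusters, and none of the 6 was at 0. Of the 5 tested, *Cyp2e1* was called higher in #m5c than in SMC, at 2158 and 1015 against 520 and 280 CPM (3.18, adjusted p = 0.00137), and made up most of the sum in #m5c. *Hnf4a*, which defines hepatocytes, was at 0.04 to 0.64 CPM in these 4 mesenchymal clusters and at 301 to 386 CPM in #p4 and #p5, where *Nr1h4* was at 289 and 263 CPM. The part of hepatocyte RNA in these *Nr1h4* levels was not tested.

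*Tbx20*, *Hand2*, *Foxf1* and *Nr2f2* were called in no comparison within mesenchyme. *Tbx20* was at 307 CPM in male but 94.3 CPM in female cHSC, at 205 CPM in male HSC, 225 and 127 CPM in venous SMC and 185 and 104 CPM in portal vein SMC, and at 14.9 and 15.9 CPM in arterial SMC. *Hand2* was at 126 CPM in male HSC, 86.4 and 129 CPM in cHSC and 84.9 and 57.2 CPM in arterial SMC, and at 4.60 and 19.2 CPM in #m12c. *Foxf1* was at 139 and 41.0 CPM in #m5c, 105 and 58.8 CPM in #m15c and 0.32 and 2.60 CPM in #m12c. *Tbx20* in #m3c and *Foxf1* in #m5c lay further apart between the pools of the cluster than between several clusters. *Nr2f2* was at 371 and 343 CPM in portal vein SMC and at 39.7 and 93.5 CPM in #m12c. Cluster #m6c showed how far plates could differ, with *Hand2* from 5.70 to 730 CPM and *Nr2f2* from 8.55 to 1928 CPM over the 3 plates with at least 5 of its cells.

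*Wt1*, *Hand2* and *Foxf1* each have a long noncoding RNA beside them. *Wt1os* starts 19 bases from *Wt1* and shares no exon bases with it in GENCODE. It was at 1.02 and 3.54 CPM in mesenchyme, and in *Wt1*+ fibroblasts it was called higher along with *Wt1* (9.53 and 15.7 against 0 and 0.83 CPM, log2 difference 7.47, adjusted p = 0.00907). *Fendrr*, which starts 1276 bases from *Foxf1*, was at 75.7 and 37.4 CPM in mesenchyme and was called higher in HSC than in mural cells (2.67, SE 0.58, adjusted p = 0.0232), a comparison in which *Foxf1* was not called (0.88, adjusted p = 0.81). *Hand2os1* (listed as *Gm28063*) shares 461 exon bases with *Hand2*, and since the sources used here do not state counting by strand reads in that shared stretch cannot be told apart.

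Lists of genes related to the factors, chosen with earlier results of these data known, were counted next. Against the mean of the other classes, where 9.47% of all genes were called higher, 5 of 11 tested genes of a chosen class II bHLH list were called higher in mesenchyme (*Hand2*, *Tcf21*, *Twist2*, *Msc*, *Tcf23*) and *Lyl1*, a blood cell factor, lower (2.33% of all genes were called lower). Of the T-box family 4 of 12 were called higher (*Tbx20*, *Tbx4*, *Tbx3*, *Tbx2*), of the LIM homeobox genes 3 of 8 (*Isl1*, *Lhx2*, *Isl2*) with *Lhx6* lower, and of the forkhead genes 3 of 16 (*Foxs1*, *Foxf1*, *Foxl1*). Of 22 nuclear receptors 3 were called higher, *Nr1h5* (7.48, adjusted p = 5.43e-04), *Nr1h4* and *Nr2f2*, a share near that of all genes. Of 17 factors of the septum transversum and coelomic mesenchyme 12 were called higher, with a median log2 difference of 6.22 against 0.02 over all genes tested. Of these 12, 7 are among the 10 genes studied here, so the count and the median in part restate their values. Fibroblast and EMT factors had 14 of 22 higher (median 2.97) and mural factors 11 of 22 (median 2.48).

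*Nr1h5* (FXR beta), the nearest relative of *Nr1h4*, was called in several of the same comparisons within mesenchyme. It was at 236 and 285 CPM in HSC against 0.23 and 4.096 CPM in fibroblasts (log2 difference 8.46, adjusted p = 0.00319), and it was also called higher in HSC than in mural cells (7.18) and in #m5c than in SMC (5.76). Of 11 tested FXR target genes, which act in bile acid synthesis and transport, 1 was called in mesenchyme against the mean of the other classes, *Cyp8b1*, and it was lower there. Between HSC and mural cells, where *Nr1h4* was higher, 1 of 11 was called (*Slc51a*, 8.33), where 1.64% of all genes were called higher, and that call rests on 12.4 CPM in the female pool. Among other factors *Prrx1*, a homeobox gene of fibroblasts, was called lower in HSC than in fibroblasts (-4.05, adjusted p = 0.0216, 0.224% of all genes called lower), and *Myocd*, the co-activator of smooth muscle genes, lower in HSC than in mural cells (-6.60, 0.335% of all genes called lower).

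For each factor the genes of most similar pattern were sought by Pearson's r of log2(CPM + 1) over the 28 sums of community clusters and pools, among 21329 genes. Sums of the same pool share mice and plates, and r is given as a description. *Wt1* was nearest to *Gfap* (0.78), *Rtl3* (0.77) and *Wnt11* (0.77), *Tcf21* to *Lamb1* (0.88), *Lrrk1* (0.83) and *Ifnar2* (0.82), and *Lhx2* to *Cdh2* (0.80), *Gdf2* (0.79) and *Lrrc4c* (0.79). *Osr1* was nearest to *Scara5* (0.84), *Mfap5* (0.83) and *Lama4* (0.78), *Nr1h4* to *Ryk* (0.80), *Atp9a* (0.78) and *Adamts13* (0.78), and *Tbx20* to *Sdc3* (0.85), *Gm26716* (0.85) and *Rai14* (0.82). *Hand2* had its overlapping neighbour *Gm28063* first (0.96), then *Tmem50b* (0.83) and *Fcf1* (0.81). For *Nr2f2* the nearest were *Psme2* (0.88), *Uqcrq* (0.86) and *Timm13* (0.84), and for *Foxf1* *Ppa1* (0.81), *Rerg* (0.78) and *Map4k3* (0.77). With a pseudocount of 0.1 instead of 1, 20 of these 27 genes stayed among the nearest 3.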

How the data were processed

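Smart-seq2 libraries of single liver cells were sequenced by the authors, and the submitters' processing notes list bcl2fastq, Bowtie, Bowtie2, featureCounts (Subread) and Seurat with the builds GRCm38 and mm10. The authors deposited raw counts per gene and cell without normalization. Before deposit they had dropped cells of low depth or gene number, cells rich in mitochondrial or ERCC reads, putative doublets (very high gene number) and cells with signs of another cell type's RNA, and no doublet caller was run here. The 92 ERCC rows were left out, and cell classes and clusters were taken from the deposited annotation. No barcode was shared between pools.

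Counts were summed per class or cluster and pool, and CPM were computed from the sums. Sums over 5 or more cells were fitted with edgeR 4.0.16 (R 4.3.3, TMM, filterByExpr, quasi-likelihood test, Benjamini-Hochberg adjustment over all genes tested), with 1 fit for classes, 1 for multilevel and 1 for community mesenchymal clusters. SE is the log2 difference divided by the root of the F statistic. HSC of #m7c gave a single sum, assumed to vary like the other clusters. The study's methods test single cells with MAST, whereas pools were the replicates here. The fits were tested on simulated counts with known changes. On these counts the fit of cHSC against HSC recovered few of the changes, so an absence of calls there says little.

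All clusters of a class came from the same pools, which pairs them by sex. The male minus female differences of class pairs correlated at 0.086 to 0.110 over genes, those of multilevel clusters at -0.002 to 0.164 and those of community clusters at -0.039 to 0.149. Fits with sex as a block were run beside each comparison.

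The factors and gene lists were chosen with earlier results of these data known. Named genes are the 10 members, their long noncoding neighbours, up to 4 called genes of a list with the greatest change, and the 3 genes nearest to each member in pattern. Cell type markers were named as such where a level rests on them. Alternatives were DESeq2 1.42.0, no filter on low counts, thinning to 50000 counts per cell, sums per plate, other cell minimums (3 and 10), the sex block and leaving out pools. Promoters and motifs were read with Python 3.11.15.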

Additional observations from a re-analysis of the deposited data

Results flagged for a closer look

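*Lhx2* and *Tbx20* each had log2 ratios of opposite sign in the pools of 1 comparison. In *Wt1*+ against other fibroblasts the log2 ratio of *Lhx2* was -3.77 in the male and 1.05 in the female pool, from mean levels of at most 12.7 CPM. The male mean of the other fibroblasts includes 75.2 CPM in #m6c, and no other cluster in it exceeded 8.28 CPM. In #m12c against #m11c the log2 ratio of *Tbx20* was -2.90 in the male and 3.46 in the female pool, where male cells had 0.32 and 8.83 CPM and female cells 33.8 and 2.17 CPM. The female sum of #m11c holds 5 cells. The difference between the sexes was not tested in either case.

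*Wt1* was also found in the mesothelial cluster #m16c, whose 6 cells were too few for any comparison. Over both pools it was at 266 CPM, and the mesothelial markers summed to 13938 CPM there.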

How the results depend on the processing

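Over 124 alternative fits of the 13 comparisons, 104 left the number of factors called within 1.5 times its value, and of 671 alternative values of single genes 549 kept their direction and side of the threshold, 74 lost and 38 gained a call, 10 values without a test moved and 0 reversed. Leaving out each pool in turn gave 7 to 9 called factors for mesenchyme against the mean of the other classes, 1 to 6 against endothelial cells, 2 to 9 against immune cells and 0 to 7 against epithelial cells. Against endothelial cells the count was 1 without the female and 2 without the male endothelial pool, and 2 without the male mesenchymal pool. Against immune cells it was 4 without the male immune pool, and 3 and 2 without the female and the male mesenchymal pool. Against epithelial cells it was 0 without either epithelial pool and 2 without the male mesenchymal pool. These fits have fewer sums, and the cause of each change was not tested.

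The single call between fibroblasts and mural cells (*Lhx2*) was lost with thinned cells, sums per plate and at least 10 cells per sum (0 genes each), and without the filter 2 genes were called. With sums per plate, 1 gene was called between cHSC and HSC, 0 between arterial and venous SMC and 0 between second layer cells and SMC. DESeq2 called 2 genes in arterial against venous SMC, as did the fit without the filter, and 1 in second layer cells. In *Wt1*+ against other fibroblasts, without the female pool and with male sums per plate, 1 gene was called. At 20 counts, 1 factor and not 2 was found in over 50% of mesenchymal cells. Sex as a replicate block moved 7 single genes below the threshold and 2 above it, and changed no count by over 1.5 times. Within mesenchyme, leaving out a pool left no residual degrees of freedom, so those fits gave fold changes without a test.

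With 1 or 2 sums per cluster, the number of pools limits precision. Female mesenchymal cells are 1 plate, so that sex and plate cannot be told apart. The numbers of cells follow the sort, single counts of a factor are near background, and Smart-seq2 reads without molecular identifiers are not independent molecules.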
